A study of Mus musculus with 8 samples.

Results

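The 308 genes described here carry the mouse name Zfp followed by a number, a name given to proteins with zinc fingers. They were chosen by symbol from the 14033 symbols of the authors' deposited table, and Zfp36, whose product binds RNA through fingers of another kind, was left out. RNA came from E14.5 mouse fetal liver cells of embryos from a cross of Flt3-Cre mice with mTmG reporter mice. By the sample titles all cells lacked lineage markers and carried Kit and Sca1. The titles also name CD150, without a sign after it. In this reporter every cell makes red Tomato protein until Cre removes it and switches on green GFP, so GFP marks cells with past Flt3-Cre activity, and which cells turn green depends on where the Flt3 driver is active. The Tomato+ and GFP+ fractions had 4 libraries each, 8 in all, and differed in this label only as far as the labels say. Whether the libraries came from separate embryos or litters is not stated, so the p-values may rest on technical spread alone.

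C2H2 zinc finger proteins bind DNA through repeated finger modules, each a short loop held by a zinc ion between cysteines and histidines. Many also carry a KRAB box, a domain that recruits the corepressor KAP1 (encoded by Trim28), which in turn brings the histone methyltransferase Setdb1 and heterochromatin proteins to the bound site. KRAB zinc finger genes have multiplied in clusters, and many silence retroelements or protect imprints. Others in the family have no KRAB box and act in chromatin complexes, RNA metabolism or ribosome assembly.

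The table gives the mean normalized count of each fraction and no value for a single library, so each member is described by its 2 group means and the authors' p-value, with no error of its own. Values of different members depend on transcript length and are not compared with each other. In bulk RNA, fewer cells of a type and less RNA per cell cannot be told apart. Markers of other cell types differed between the fractions. All 7 measured lymphoid-primed markers rose in GFP+, with sums of 14864 against 7601 in the authors' deposited table, GFP+ first. All 7 measured hepatoblast, all 9 macrophage, 7 of 9 erythroid and all 8 B lymphoid markers had higher means in GFP+. Of these 7, 8, 7 and 5 had an adjusted p under 0.05. Summed over each list, the means were 1966 against 355, 1341 against 373, 38330 against 12169 and 612 against 241 (GFP+ against Tomato+, the authors' deposited table), and no marker was at 0. All 10 stem cell markers fell, with sums of 6771 against 11428 in the authors' deposited table. The part of these differences in the Zfp values was not tested.

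Few members differed between the fractions. An adjusted p under 0.05 was reached by 10 of 308 members (3.25%) of the authors' deposited table, of which 7 rose and 3 fell in GFP+. Over all 14033 symbols 7.35% passed, 4.7% higher and 2.66% lower, against 2.27% and 0.974% of the members. Counted by row, so that the 6 members with 2 rows enter with both, 7.49% of all 14268 rows passed. At an unadjusted p under 0.05 there were 15 members (4.87%) and 16.1% of all symbols. At least 2-fold differences were seen in 7 members (2.27%) and in 9.5% of all symbols, and 276 members (89.6%) lay within 1.5-fold, as did 81% of all symbols. An adjusted p of 1 was given to 123 members (39.9%) and to 30.4% of all symbols. The members' means over both fractions ran from 3.95 to 2725 normalized counts, with a median of 137.

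**Figure D1:**
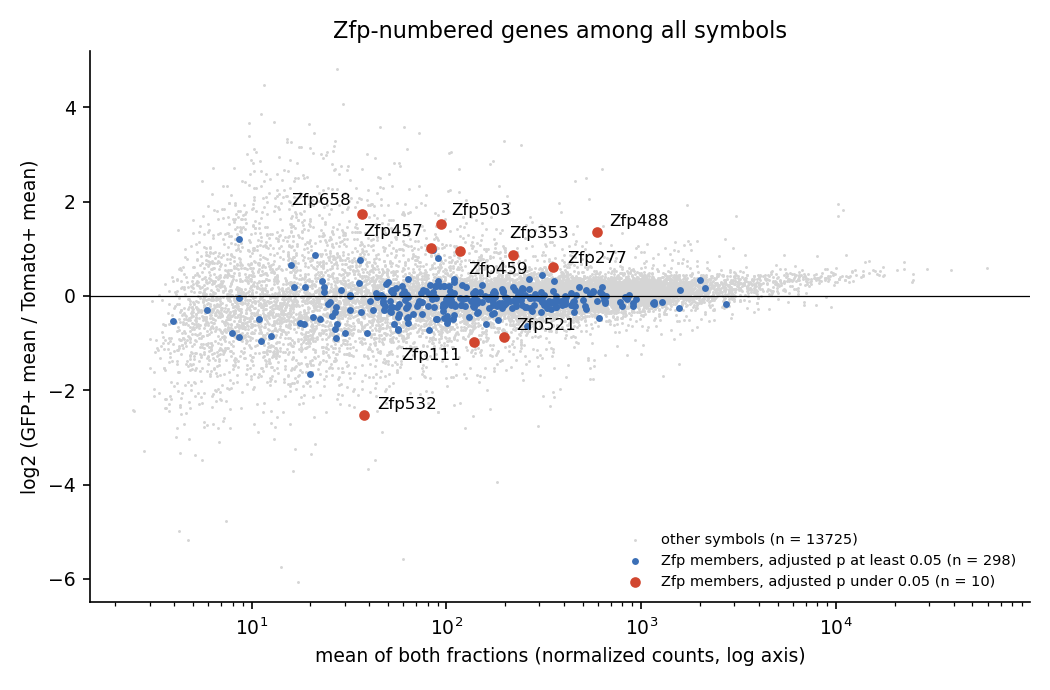
Each point is 1 symbol, with the mean of both fractions in normalized counts on a log axis and the log2 ratio of the GFP+ to the Tomato+ mean. Grey points are the other symbols, blue points the 298 members that did not pass and red points the 10 that did. Most members lie close to 0, and Zfp532 lies farthest from it, at -2.52.

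Among the 7 members that rose, Zfp488, a transcription factor known from oligodendrocyte development, had the smallest p-value. Its means in the authors' deposited table were 850 (GFP+) against 335 (Tomato+), 2.54-fold higher in GFP+ (adjusted p = 1.87e-22). Zfp503, a corepressor also called Nolz1 that acts in limb and striatal development, had 139 and 48.1 normalized counts, 2.89-fold higher (adjusted p = 0.000192, the authors' deposited table). Zfp277, which has been linked to Polycomb repression of the Ink4a/Arf locus, had 426 and 277, 1.54-fold higher (adjusted p = 0.0151, the authors' deposited table). No KRAB box was found in the product of any of these 3 genes. Zfp503 overlaps the gene A330001L22Rik and Zfp277 the gene Gm40406 in RefSeq, and since it is not given whether strand was used in counting, reads of such pairs cannot be told apart.

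The other 4 rises were Zfp353, Zfp457, Zfp459 and Zfp658. Zfp353 had means of 285 (GFP+) against 155 (Tomato+) of the authors' deposited table, 1.84-fold higher (adjusted p = 4.37e-08). RefSeq now lists this symbol as the pseudogene Zfp353-ps, so the difference is one of a transcript not annotated to make protein. Zfp658, a KRAB gene with 21 fingers, had the largest fold of the rises, 3.35, from the low means of 56.6 (GFP+) against 16.9 (Tomato+; adjusted p = 0.0212, the authors' deposited table). Zfp457 and Zfp459 are members of 1 gene cluster and are described with it.

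Of the 3 members that fell in GFP+, Zfp521 is the one best known in blood. Also called Evi3, it is a cofactor of immature blood cells that opposes the B cell regulator Ebf1. In the authors' deposited table it had 140 normalized counts in GFP+ against 255 in Tomato+, a 1.82-fold fall (adjusted p = 0.00925). Zfp532, a partner of the chromatin reader Zmynd8, had the largest difference of all members, with 11.2 (GFP+) against 64.6 (Tomato+), 5.75-fold lower (adjusted p = 0.000976, the authors' deposited table). The other 2 zinc finger subunits of that complex, Zfp592 and Zfp687, did not pass, with 731 against 854 and 468 against 570 in the authors' deposited table, GFP+ first. Zfp111, a KRAB gene with 14 fingers, had 93.3 and 183, 1.96-fold lower (adjusted p = 0.0187, the authors' deposited table). Zfp532 overlaps the gene Gm18281 in RefSeq, with the same limit as for Zfp503.

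**Figure D2:**
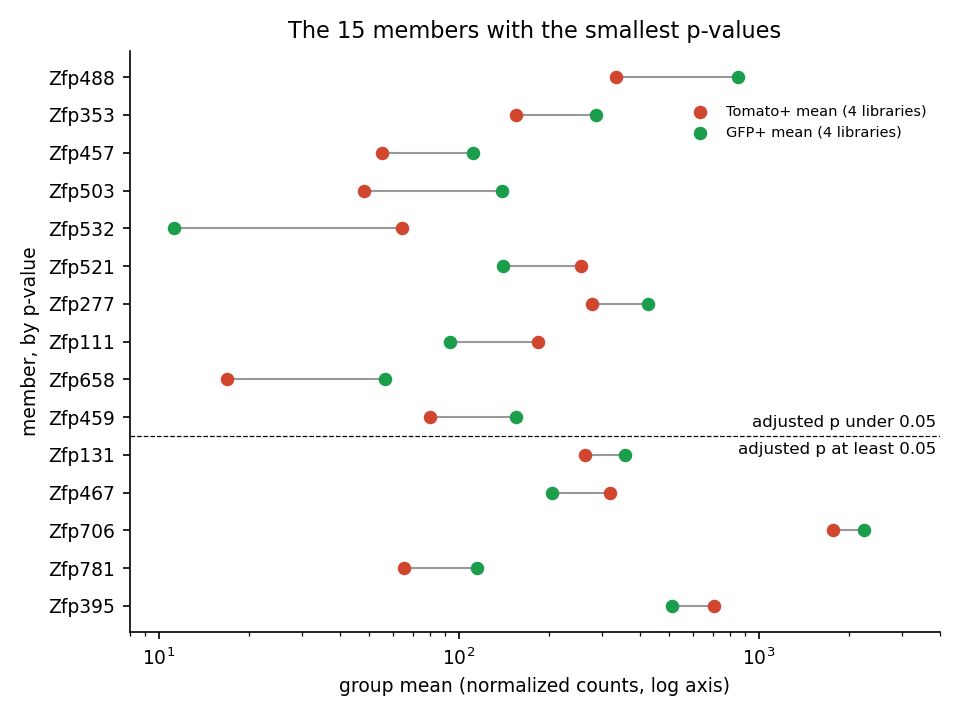
Group means in normalized counts (log axis) of the 15 members with the smallest p-values, with GFP+ in green and Tomato+ in red and 1 line per member. Each point is the mean of 4 libraries, whose spread the table does not give. Above the dashed line, 7 members are higher in GFP+, and Zfp532, Zfp521 and Zfp111 are higher in Tomato+.

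The 5 members next by p-value did not pass. Zfp131, a zinc finger protein with a BTB domain, had means of 358 (GFP+) against 262 (Tomato+; adjusted p = 0.0936, the authors' deposited table), and its other row in the table had 359 and 252 (adjusted p = 0.0642). By the authors' deposited table Zfp467, known to favour fat over bone cell fate, had 203 and 317 (adjusted p = 0.132), and Zfp395 had 511 and 706 (adjusted p = 0.294). The authors' deposited table gave Zfp706 2230 and 1760 (adjusted p = 0.243) and Zfp781 114 and 65.7 (adjusted p = 0.275). A large fold alone did not bring a member past the threshold. Zfp57, with means of only 9.58 (GFP+) against 30.4 (Tomato+) in the authors' deposited table, was 3.17-fold lower (adjusted p = 0.426), and Zfp600, singled out only once its values were known, had 12.1 and 5.22 (adjusted p = 0.867).

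The members that did not pass had, for the most part, slightly lower means in GFP+. Of all 308 members, 205 (66.6%) had a log2 value below 0, against 49% of all symbols, and the median was -0.10 against 0.01. The middle 50% of members lay between -0.23 and 0.06. In each of 4 ranges of mean, 65.5% to 68.6% of members were below 0. Of the other symbols 59.8% were below 0 under a mean of 50 and 56.9% from 50 to 200, and 23.8% at 1000 and over. Among members with a mean from 200 to 1000 normalized counts 67% were below 0, against 44.7% of other symbols in that range, with medians of -0.08 and 0.03. The 9 members at 1000 and over had a median of -0.14, and the 1724 other symbols there one of 0.15. From 50 to 200 the medians were -0.09 and -0.06, and under 50 they were -0.21 and -0.18. The share that passed was 3.92%, 3.38%, 3% and 0% of members in the 4 ranges from low to high, where 4.28%, 9.12%, 5.63% and 15.8% of all symbols passed. The medians are descriptions without a test, since genes of the same libraries are not replicates. Scaling both fractions to the same total lowers every log2 value by 0.16, which put 85.4% of members and 69.6% of all symbols below 0.

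**Figure D3:**
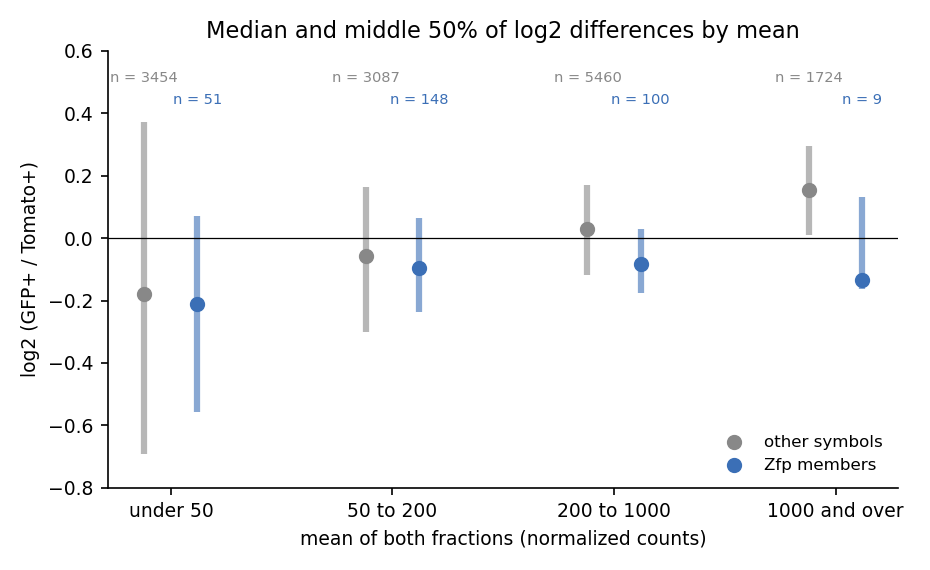
Points are medians and bars the middle 50% of log2 ratios of the GFP+ to the Tomato+ mean, for Zfp members (blue) and all other symbols (grey) in 4 ranges of mean normalized count. The 2 medians lie apart at a mean of 1000 and over, at -0.14 and 0.15, and close together under 50.

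None of the 5 members with the highest mean counts passed. Zfp106, an RNA-binding protein, had 2566 (GFP+) against 2884 (Tomato+) in the authors' deposited table, and Zfp608 had 1428 and 1704. Zfp207, a mitotic partner of Bub3, had 2248 and 2014, and Zfp422 1650 and 1507, in the authors' deposited table, and Zfp706 was given above. Zfp207, Zfp706 and Zfp422 were higher in GFP+ and the other 2 lower. With both fractions scaled to the same total Zfp422 turned to -0.026 on the log2 scale, and Zfp207 came to 0.0014. Together the members' means summed to 71932 (GFP+) against 74622 (Tomato+), which is 0.907% and 1.05% of the total of all rows.

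Coding sequences could be read from the GENCODE M21 annotation for 305 of the members. A finger was read as a pair of cysteines with 2 to 4 residues between them, 12 further residues and a pair of histidines with 3 to 5 residues between them, and 298 of the 305 proteins held it at least once. The median was 10 fingers and the most was 36. The 7 proteins with 0 matches include that of Zfp503, the only one of them that passed (14.3%). Of these 7 members 28.6% had a log2 value below 0, against 63.4% to 71.4% in the other finger groups. Their median was 0.12, and -0.03 with both fractions scaled to the same total, which is no result about so few members. Of 85 members with 5 to 9 fingers 0 passed and 1 had an unadjusted p under 0.05. Of 41 with 1 to 4 fingers 3 rose (7.32%), and of 109 with 10 to 14 fingers 2 fell (1.83%). Of 63 with at least 15 fingers 2 rose and 1 fell (4.76%). Of all symbols 7.35% passed. A KRAB box was found in 174 (57%). Most members lay below 0 with or without it. With a KRAB box 67.2% had a log2 value below 0 and the median was -0.12, and without it 65.6% and -0.08. Of the KRAB members 3 rose and 1 fell (2.3%), and of the 131 others 3 rose and 2 fell (3.82%), both below the 7.35% of all symbols. Over the 305 members, Spearman's rho between the number of fingers and the log2 value was -0.10, a description over genes that share the same libraries. Genes outside the naming rule had similar medians. The 174 other genes whose protein holds at least 3 fingers had a median of -0.11, with 67.2% below 0, and 13 of them (7.47%) passed. Of the 25 other symbols that begin with Zfp, only Zfpm1 passed. It encodes FOG1, the partner of GATA factors, and had 1019 (GFP+) against 1907 (Tomato+) in the authors' deposited table, 1.87-fold lower (adjusted p = 5.63e-08).

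Zfp genes lie next to each other in the genome. In the RefSeq gene order, 87 members fell into 9 runs of at least 5, in which neighbouring members had at most 2 other protein-coding genes between them, and 8 of the 9 runs had a median log2 value below 0. The exception was the longest run, 17 KRAB members from Zfp712 to Zfp273 on chromosome 13, with a median of 0.03 that turned to -0.13 with both fractions scaled to the same total and to -0.002 when centred. Above 0 lay 10 of its members, 5 after scaling. It held 2 of the 10 members that passed. They are 11.8% of the run, against 7.35% of all symbols and 9.12% of symbols with a mean from 50 to 200. Zfp457 had means of 112 (GFP+) against 55.2 (Tomato+), 2.02-fold higher (adjusted p = 0.000115), and Zfp459 155 and 80.0, 1.94-fold higher (adjusted p = 0.0236), in the authors' deposited table. Zfp459 overlaps the genes Gm33787 and Zfp874a in RefSeq, so its reads cannot be told from theirs if strand was not used. The 15 others did not pass, and the 4 members between the pair had nearly equal means. Of these 4, Zfp595 had 85.9 and 84.2, Zfp953 142 and 137, Zfp456 59.4 and 63.4 and Zfp429 46.6 and 45.8 (GFP+ against Tomato+, the authors' deposited table). Zfp458, on the other side of Zfp457, had 24.2 and 26.6, and Zfp58, on the other side of Zfp459, 105 and 90.0, in the authors' deposited table (adjusted p = 0.855 and 0.929). In Zfp58 52.2% of the 50-base stretches also occur in other genes' transcripts, so its value is uncertain. The largest difference in the other direction was in Zfp738, with 126 and 161 (adjusted p = 0.832, the authors' deposited table).

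**Figure D4:**
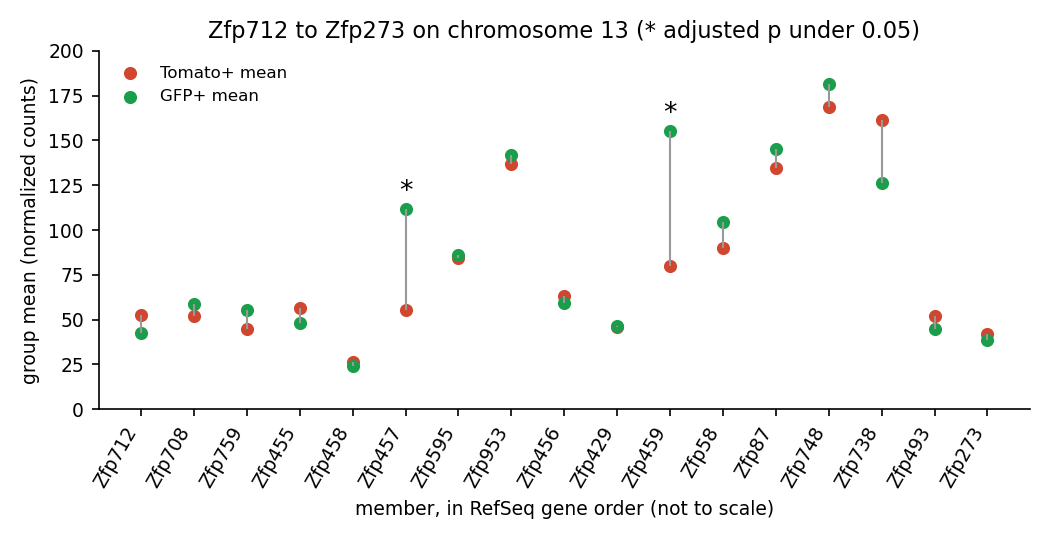
Group means in normalized counts of the 17 members of the chromosome 13 run, in RefSeq gene order and not to scale, with GFP+ in green and Tomato+ in red. Stars mark Zfp457 and Zfp459, whose GFP+ means of 112 and 155 stand above Tomato+ means of 55.2 and 80.0, while the 4 genes between them have nearly equal means.

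The promoters of these genes are shown because 2 members of 1 cluster rose while their neighbours did not pass. RefSeq promoters (GRCm38.p6, 250 bases before to 50 after the start) were at hand for 249 of the members. Those below are Zfp457 (chr13:67306363-67306662, minus strand), Zfp459 (chr13:67421369-67421668, minus strand), Zfp759 of the same run (chr13:67127978-67128277, plus strand) and Zfp488 (chr14:33978715-33979014, minus strand), the member with the smallest p-value. Among the 14 promoters of the run that were aligned, that of Zfp759 was the most like that of Zfp457. Capitals mark matches to any of 6 motifs searched on both strands. AGATAA stood for GATA factors, CCGGAAG for ETS factors, TGTGGT for RUNX factors, TGACGTCA for the CRE and TATAAA for the TATA box. CAGCTG was the only form of the E-box searched. No matches overlap in these windows.
Zfp457: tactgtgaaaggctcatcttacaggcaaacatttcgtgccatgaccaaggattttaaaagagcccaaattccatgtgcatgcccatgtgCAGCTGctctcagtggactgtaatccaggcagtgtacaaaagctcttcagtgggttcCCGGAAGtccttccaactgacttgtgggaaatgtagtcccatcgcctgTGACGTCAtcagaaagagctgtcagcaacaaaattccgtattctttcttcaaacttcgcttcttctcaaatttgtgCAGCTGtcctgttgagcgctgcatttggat
Zfp459: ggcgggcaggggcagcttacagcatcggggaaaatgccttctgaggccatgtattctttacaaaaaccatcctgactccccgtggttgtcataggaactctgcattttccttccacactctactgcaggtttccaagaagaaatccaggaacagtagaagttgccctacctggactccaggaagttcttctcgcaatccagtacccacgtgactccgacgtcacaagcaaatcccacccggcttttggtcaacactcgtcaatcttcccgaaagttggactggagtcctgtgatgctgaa
Zfp759: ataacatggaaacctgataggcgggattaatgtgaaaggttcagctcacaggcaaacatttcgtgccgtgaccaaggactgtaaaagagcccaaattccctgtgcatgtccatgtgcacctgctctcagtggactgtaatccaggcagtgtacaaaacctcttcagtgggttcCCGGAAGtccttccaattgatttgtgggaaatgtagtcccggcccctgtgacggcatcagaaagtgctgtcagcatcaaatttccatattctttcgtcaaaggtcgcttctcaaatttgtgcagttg
Zfp488: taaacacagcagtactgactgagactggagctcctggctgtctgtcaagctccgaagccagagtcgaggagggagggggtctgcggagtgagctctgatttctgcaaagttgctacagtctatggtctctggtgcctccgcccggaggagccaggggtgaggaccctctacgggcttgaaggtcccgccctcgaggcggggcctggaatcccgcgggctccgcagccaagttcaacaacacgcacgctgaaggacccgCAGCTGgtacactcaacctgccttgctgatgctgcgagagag

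Zfp457 and Zfp459 did not stand out as a pair. In a global alignment 63.3% of their 300 bases were identical, rank 33 of the 91 pairs among 14 promoters of the run, which ranged from 54% to 89.7%. Zfp708, with more than 1 promoter, and Zfp87 and Zfp493, with none at hand, were not aligned. The promoter of Zfp457 was 83% identical to that of Zfp759, which had means of 55.3 (GFP+) against 44.8 (Tomato+) in the authors' deposited table and did not pass (adjusted p = 1). Zfp457 held 2 CAGCTG matches, an ETS and a CRE match, Zfp759 an ETS match, Zfp488 a CAGCTG match and Zfp459 none. Other forms of the E-box were not searched, such as CACGTG in the promoter of Zfp459 and CACCTG in that of Zfp759. The matches therefore do not show which of these promoters lack an E-box. The ETS letters were in 21.7% of the 313 member promoters, in 16.5% of 11749 promoters of measured genes and in 8.86% of all 32851 promoters of the RefSeq table. In the same order the E-box letters were in 18.2%, 15.2% and 16.3%, and the CRE letters in 4.47%, 2.94% and 1.79%. The GATA letters were in 7.35%, 6.83% and 11.2%, the RUNX letters in 16.9%, 12.9% and 16.8% and the TATA letters in 8.31%, 7.28% and 13.6%. Member promoters held a median of 16 CpG pairs, against 20 in those of measured genes. A match is a run of letters and not a site of binding.

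Zfp111 lies in another run, 9 members from Zfp180 to Zfp94 on chromosome 7, with a median of -0.21 and 7 members below 0. Runs without a member past the threshold had medians from -0.20, in the 10 members from Zfp786 to Zfp862, to -0.09, in the 14 from Zfp84 to Zfp146. In the authors' deposited table its neighbour Zfp114 had 22.3 in GFP+ against 38.4 in Tomato+ (adjusted p = 0.602), and Zfp109 on the other side had 65.3 and 75.5 (adjusted p = 0.897). How the authors counted reads that match several such genes is not given. Of all 50-base stretches of the transcript, 5.31% in Zfp111, 12.7% in Zfp457, 5.45% in Zfp459, 9.54% in Zfp277 and 15% in Zfp488 also occurred in transcripts of other genes. For Zfp457 the gene that shared most was its neighbour Zfp458, at 8.13%. Zfp503, Zfp521, Zfp532 and Zfp658 shared none, and 209 of 305 members shared under 1%. For Zfp353, which had no coding sequence to read, the share is unknown. Zfp781 shared 96.3%, Zfp600 83.3%, Zfp114 37.9%, Zfp429 26.1%, Zfp384 16.8% and Zfp456 16.5%, so their values are uncertain.

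Members with a known role fell into 5 small groups, whose counts stand beside the 7.35% of all symbols that passed and the 16.1% with an unadjusted p under 0.05. Of 6 that protect imprints or silence retroelements, 0 passed and 0 had an unadjusted p under 0.05. Their median log2 value was -0.14, with 5 below 0, where 66.6% of all members lay below 0. Zfp57, which keeps methylation at imprinted regions, had the values given above. Zfp568, which represses a placental Igf2 promoter, had 312 (GFP+) against 378 (Tomato+), and Zfp445, another imprint regulator, 1097 and 1228, in the authors' deposited table. Zfp809, which silences retroviruses in embryonic cells, had 102 and 109 in the authors' deposited table. Only Zfp708, a repressor of an endogenous retrovirus and a member of the chromosome 13 run, was above 0. All its 50-base stretches occur in other genes' transcripts too, so its value is uncertain. The same holds for Zfp932, also of this group and below 0, where 55.5% of the stretches are shared.

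Of 6 members linked to blood and lymphoid cells, Zfp521 fell and the others did not pass, with all 6 below 0 and a median of -0.21. Of all members 66.6% were below 0. The list was chosen with earlier results known, and the direction is no result about so few members. Zfp318, needed for IgD on B cells, had 246 (GFP+) against 292 (Tomato+), and Zfp335, needed for T cell development, 381 and 429, in the authors' deposited table. Zfp410, which controls Chd4 in red cells, had 337 and 376, and Zfp384, known from leukemia fusions, 567 and 614, in the authors' deposited table. Zfp423, the paralog of Zfp521, averaged only 5.28 and 6.50, again by the authors' deposited table.

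Among 4 measured pluripotency members and 8 measured RNA and ribosome members, 0 passed, and 0 had an unadjusted p under 0.05 (7.35% and 16.1% of all symbols), which is no result about so few members. In the first group Zfp462 had 74.7 (GFP+) against 105 (Tomato+) and Zfp281 390 and 419, and Zfp143, a general promoter-binding factor, had 202 and 183, in the authors' deposited table. In the second group the median log2 was 0.07, and -0.09 with both fractions scaled to the same total, with 4 above and 4 below 0 either way. Zfp593 and Zfp622, both assembly factors of the large ribosomal subunit, had 300 and 233, and 511 and 450, in the authors' deposited table (adjusted p = 0.456 and 0.441). Zfp598, which marks stalled ribosomes, had 821 and 836 in the authors' deposited table.

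Of 12 members of chromatin and cofactor complexes Zfp503 rose and Zfp532 fell (16.7%, against 3.25% of members and 7.35% of all symbols). This share rests on 2 genes of a list chosen with earlier results known, and is no result about so few members. The median of the group was -0.15. Zfp217, of the CoREST complex, had 658 (GFP+) against 660 (Tomato+), Zfp609, a partner of the cohesin loader, 623 and 657, and Zfp644, a partner of the methyltransferase G9a, 584 and 542, in the authors' deposited table. With the fractions scaled to the same total Zfp644 turned to -0.048, and Zfp143 of the pluripotency group to -0.018.

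**Figure D5:**
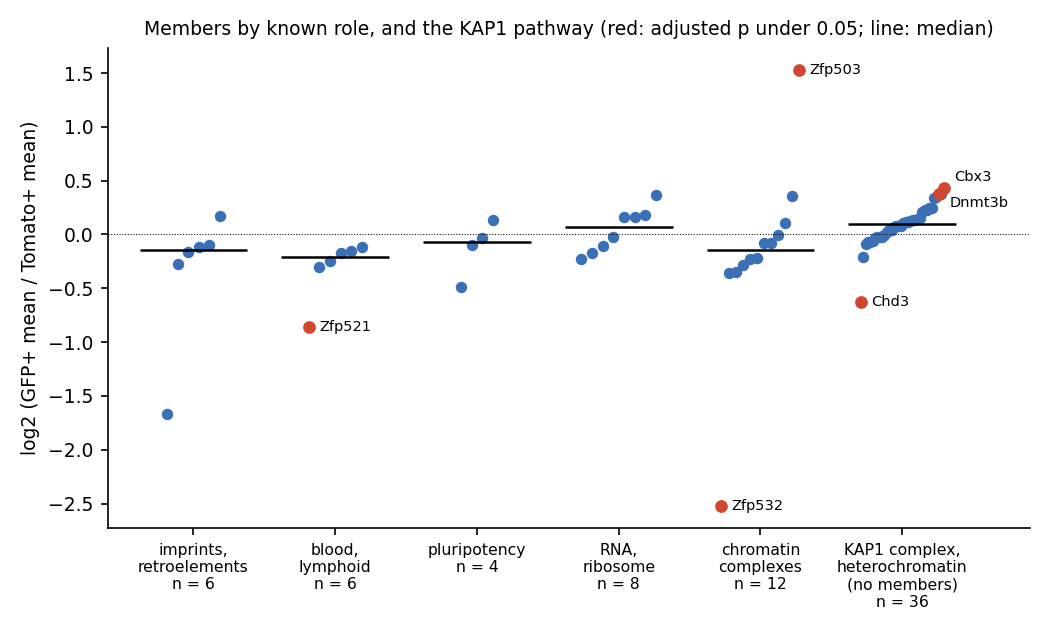
Each point is 1 gene, placed by its log2 ratio of the GFP+ to the Tomato+ mean, in the 5 role groups of members and, at the right, the KAP1 and heterochromatin genes, which are not members. Red points passed an adjusted p of 0.05, and lines are medians, from -0.21 in the blood group to 0.09 at the right. With both fractions scaled to the same total the medians of the RNA group and of the genes at the right turn below 0.

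The corepressor genes through which KRAB proteins act passed at a share near that of all symbols, 8.33% against 7.35%. Of 36 measured genes of the KAP1 complex and heterochromatin, 2 rose and 1 fell, and 25 had a log2 value above 0, with a median of 0.09, but 11 and -0.06 with both fractions scaled to the same total. The authors' deposited table gave Trim28 itself 6242 in GFP+ against 5405 in Tomato+ (adjusted p = 0.388), and Setdb1 862 and 883 (adjusted p = 0.993). By the authors' deposited table Cbx3, a heterochromatin protein, rose 1.35-fold (adjusted p = 0.0233) and Dnmt3b, a de novo DNA methyltransferase, 1.29-fold (adjusted p = 0.0323). Chd3, a NuRD remodeller, fell 1.55-fold, with 938 in GFP+ against 1450 in Tomato+ of the authors' deposited table (adjusted p = 0.000363). The 36 genes had means over both fractions from 304 to 6358 normalized counts, with a median of 1208. Of all symbols with a mean from 200 to 1000, 5.63% passed. Among all symbols with a mean of at least 1000, such as Trim28, 15.8% passed and the median log2 value was 0.15. The share of 8.33% was not compared with genes matched by mean.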

How the data were processed

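RNA was measured in 4 GFP+ and 4 Tomato+ libraries, grouped by their titles. Per the submitters' processing notes, the authors worked on build mm9 and used DESeq, bedtools, TopHat, TopHat2 2.0.11 and Bowtie2 2.2.1, with no settings given. Per the file headers, baseMean is the authors' mean signal, a normalized count, given for each fraction and for both. The authors also deposited the ratio of the Tomato+ to the GFP+ mean, its log2 value, and DESeq p-values with their adjusted p-values. The adjusted values equalled a Benjamini-Hochberg adjustment over all 14268 rows within 5.3e-08. Library depths are not in this table, so depth per library is unknown and no test across libraries was run.

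The repeated header line was dropped, the sign was turned so that positive means higher in GFP+, and each symbol was read from its row with the highest mean; 6 members had more than 1 row. A call is the authors' adjusted p under 0.05. The members, lists and rules were chosen with earlier results of these data known. Named were all called members, the 5 next by p-value, the 5 with the highest mean and the role lists, of which Zfp42 and Zfp638 matched no row.

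Symbols were matched to RefSeq (GRCm38.p6), 295 directly and 13 through older symbols. The protein table foreseen was not used here; fingers were counted in the longest translated GENCODE M21 coding sequence, and KRAB boxes were found with HMMER 3.4 (E-value 1e-05) from a profile of 191 sequences. Promoters were aligned with Biopython 1.88. The adjustment, finger and 50-base steps were tested on simulated data.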

Additional observations from a re-analysis of the deposited data

How the results depend on the processing

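No paired analysis was possible because the values analysed here are group means; leaving out libraries and other size factors were not run for the same reason. Against 10 members past the threshold (7 higher, 3 lower), 6 were left by an adjusted p under 0.01, 5 by asking for at least 2-fold and 3 by Bonferroni's adjustment, each a stricter criterion, where 4.82%, 3.38% and 2.14% of all symbols passed. The other alternatives gave 8 to 11. Among them, 8 were left without members that share at least 10% of their 50-base stretches. That setting leaves out Zfp488 and Zfp457 and was chosen after seeing the data. Zfp353, whose share is unknown, was kept among the 8. The median log2 of -0.10 was -0.26 with both groups scaled to the same total, which lowers every log2 value by 0.16, -0.13 when centred, -0.093 with a minimum mean of 50 and -0.11 without those sharing members. Scaling left 85.4% of members and 69.6% of all symbols below 0. Among the 50 named members it turned the sign of 3, none past the threshold, Zfp422 to -0.026, Zfp143 to -0.018 and Zfp644 to -0.048. No named member past the threshold changed sign under scaling or centring.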
